A study of Caenorhabditis elegans with 9 samples.

Results

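First-stage (L1) larvae of Caenorhabditis elegans that carry the oga-1 deletion ok1207 were compared with wild-type L1 larvae after a short meal. The comparison takes in the 3 arrays labelled as the fed oga-1 mutant and the 3 labelled as fed wild type, which is 6 of the 9 arrays of the series. All probe sets except the array's own controls entered it, 22548 of the 22625 in the table. In both genotypes, eggs were freed by bleaching, hatched in sterile buffer without food and were collected as L1 larvae after 48 h, then fed OP50, the E. coli strain used as laboratory food, on NGM agar for 3 h. From Trizol-extracted total RNA, 4 ug was turned into biotin-labelled cRNA for hybridisation to Affymetrix arrays, which report 1 signal per probe set. The other 3 arrays hold larvae with the ogt-1 deletion ok430, raised and fed the same way. They enter the fit for the estimate of the spread and for a direct contrast of the mutants, and their values are given for part of the genes below. Each group has 3 arrays, which the labels call biological replicates, and this number limits the precision of every value below. The labels name 1 allele per gene and no rescued strain, so effects of oga-1 and of anything else that the ok1207 strain carries cannot be told apart.

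O-GlcNAc is a single sugar that cells attach to serines and threonines of nuclear and cytoplasmic proteins, among them transcription factors, RNA polymerase II and nuclear pore proteins. One enzyme, OGT-1, adds it from the donor UDP-GlcNAc, the end product of the hexosamine pathway, and one enzyme, OGA-1, removes it, so animals without OGA-1 keep the modification in place. Cycling of the sugar has been tied to nutrient and insulin-like signalling in worms and mammals. L1 larvae that hatch without food stop developing and start again when they feed, so the sampled animals had recently left that arrest.

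The array medians lay at 7.43 to 7.46, so the signals were on 1 scale when deposited, and a shift shared by most genes would not show. Arrays of 1 genotype correlated with r of 0.992 to 0.997 across probe sets, and wild-type with oga-1 mutant arrays at 0.988 to 0.995. On the first principal component of the 6 arrays (38.3% of the variance) wild type lay at -22.6, -13.9 and -5.30 and the oga-1 mutant at 3.93, 9.06 and 28.8, so that wild type 1 and oga-1 mutant 3 were at the ends. Signal of the actin control at its 3-prime end exceeded that at its 5-prime end by 0.564 ± 0.108 (log2, SD, n = 3) in wild type and by 0.396 ± 0.0266 in the mutant, without overlap. The exact permutation p was 0.1, the smallest that 3 arrays against 3 allow. For the gaps of GAPDH, ubiquitin and catalase it was 0.7, 0.4 and 0.7. The part of this gap in the results was not tested beyond a fit with the mean control gap as a covariate, which left 25 calls of the 87 rises and 25 falls given further on. Signals were not set against background, and differences of dim probe sets may come out too small. A fold is therefore given only where neither group mean was below 7.45, the median over probe sets of their mean signal.

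The removed gene was examined first. Wild type gave 9.31, 9.54 and 9.63 at its brightest probe set, the oga-1 mutant 8.63, 8.74 and 8.88 and the ogt-1 mutant 9.53, 9.64 and 9.66. All 3 oga-1 mutant arrays were below all others. The signal thus fell by 0.75 ± 0.10 (log2, SE, n = 3; limma adjusted p = 0.0181), a 1.68-fold difference. This probe set carries a suffix (_s_at) that marks possible cross-hybridisation with related sequences, here called marked. The unmarked oga-1 probe set gave 7.17, 7.14 and 7.28 in wild type and 6.49, 6.85 and 6.51 in the mutant, and a second marked one 5.99 to 6.01 against values up to 5.80. Neither group of arrays overlapped the other at any of the 3 probe sets. The differences at these last probe sets were -0.58 ± 0.11 and -0.30 ± 0.11, and neither passed the threshold (limma adjusted p = 0.0648 and 0.373). Leaving out oga-1 mutant 1, oga-1 mutant 2, wild type 2 or wild type 3 ended the call at the first (limma adjusted p = 0.0595 to 0.112). The sources used here do not place the probes relative to the deletion, so the signal that remains cannot be assigned to a transcript.

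Among the other genes of sugar donor synthesis and cycling none passed the threshold. The list held 8 genes, of which 7 were measured, oga-1 fell and 6 were not called, with a median difference of -0.14 against 0.02 over the 17118 genes measured. For ogt-1, the transferase, the brighter probe set gave 10.87, 10.76 and 10.94 in wild type and 10.51, 10.97 and 10.22 in the mutant, which overlap (-0.29 ± 0.17, limma adjusted p = 0.537). The dimmer ogt-1 probe set differed by -0.08 (limma adjusted p = 0.834), and both ogt-1 probe sets are marked. On the arrays labelled ogt-1 mutant the brighter one read 11.43, 11.43 and 11.17, above all wild-type arrays, so its signal gives no check of that label, and those arrays are called ogt-1 mutant from their labels alone. The first enzyme of the hexosamine pathway, glutamine-fructose-6-phosphate aminotransferase, is encoded by gfat-1 (-0.28 ± 0.13, marked) and gfat-2 (-0.09 ± 0.13). The acetyltransferase genes gna-1 and gna-2 differed by 0.19 ± 0.14 and -0.14 ± 0.10, and C36A4.4, which encodes a UDP-GlcNAc pyrophosphorylase, by -0.05 ± 0.14. The arrays of the groups overlapped for all of these except oga-1.

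The genes beside oga-1 on the X chromosome were not called either. Of the 10 measured genes on each side, 20 in all, 0 passed the threshold, and their differences ran from -0.60 to 0.27 with a median of 0.02 and 10 of them above 0. The nearest on one side, apa-2, which encodes a subunit of the clathrin adaptor complex, gave 9.71, 9.72 and 9.77 in wild type and 9.93, 9.80 and 10.07 in the mutant. On the other side pkc-2, a protein kinase C gene, gave 10.27, 10.06 and 10.12 against 9.95, 10.12 and 9.90. In apa-2 the mutant arrays were all above wild type, and in pkc-2 the groups overlapped. Further out, the groups did not overlap in B0416.3 (-0.45), gly-13 (-0.60, marked), C23F12.3 (0.16) and fln-2 (-0.24, marked). Over all genes the mutant arrays were all above wild type in 10.1% and all below in 6.37%. With 0.52% of all genes called, 0 calls among 20 show little about this region.

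What loss of the O-GlcNAcase changes in fed L1 larvae is the question of the whole comparison, and few genes passed the test. Of the 22548 probe sets 0.497% were called at an adjusted p under 0.05, 87 of them higher in the oga-1 mutant (0.386%) and 25 lower (0.111%). At an unadjusted p under 0.05 there were 2598 (11.5%). The called probe sets cover 92 genes with a single name, 72 higher and 20 lower, and 17 probe sets carry several gene names or none. Of these, 6 bright ones marked _x_at rose by 0.64 to 0.97. The median size of change was 0.797 (0.84 for rises, -0.72 for falls), and 29 passed 2-fold, 26 higher and 3 lower. At all of them the wild-type and oga-1 mutant arrays did not overlap, and 28 are marked. Of the 87 rises, 45 started from a wild-type mean below 7.45, and in 28 both means lay below it. Leaving out 1 array moved the number of calls to 27 without wild type 2, 37 without oga-1 mutant 3, 48 without oga-1 mutant 1, 53 without oga-1 mutant 2, 70 without wild type 3 and 72 without wild type 1, and to 81, 83 and 96 without an ogt-1 mutant array. Called without each of the 9 arrays in turn were 25 probe sets, 22 higher and 3 lower. In RNA from whole larvae, fewer cells of a type and less RNA per cell cannot be told apart.

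**Figure D1:**
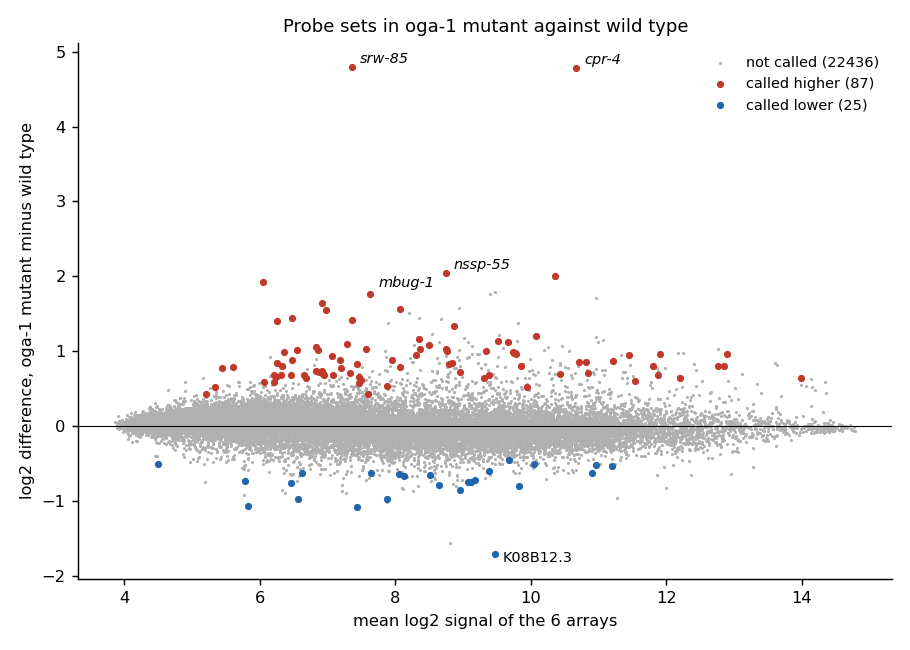
Each point is 1 of the 22548 probe sets, with the mean log2 signal of the 6 arrays on the x axis and the log2 difference (oga-1 mutant minus wild type) on the y axis; red points are the 87 called higher and blue points the 25 called lower. The rises of srw-85 and cpr-4 stand at 4.80 and 4.79, and the largest fall, K08B12.3, at -1.72.

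The largest change was that of srw-85, which encodes a predicted chemoreceptor of the srw family. Its signal was 5.13, 4.86 and 4.90 in wild type and 9.56, 9.84 and 9.88 in the oga-1 mutant. On the ogt-1 mutant arrays it was 4.77, 5.01 and 4.79, level with wild type. The rise in the oga-1 mutant was 4.80 ± 0.12 (limma adjusted p = 5.16e-08). Only 12.8% of probe sets had a lower wild-type mean, so no fold is given. The direct contrast of the mutants, taken from the same fit, differed by 4.90 ± 0.12 (limma adjusted p = 4.16e-08).

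A rise of the same size was found in cpr-4, which encodes a secreted cysteine protease of the cathepsin B type. It gave 8.70, 8.16 and 7.96 in wild type and 13.21, 12.85 and 13.12 in the oga-1 mutant, a 27.6-fold rise (4.79 ± 0.18, limma adjusted p = 1.38e-06). The ogt-1 mutant arrays, at 12.75, 12.75 and 12.97, were also all above wild type, and the mutants differed by 0.23 ± 0.18 (limma adjusted p = 0.486). In the list of 27 cathepsin and aspartyl proteases cpr-4 alone was called. The next by p were asp-14, which encodes an aspartyl protease (0.78 ± 0.19, limma adjusted p = 0.140), cpr-2 (-0.97 ± 0.24, limma adjusted p = 0.146) and asp-7 (-0.66 ± 0.18, limma adjusted p = 0.213). The median of the list was 0.03.

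The other rises among the 12 largest were smaller. The gene nssp-55 gave 7.62, 7.83 and 7.71 in wild type and 9.50, 9.68 and 10.12 in the oga-1 mutant, a 4.13-fold rise (2.05 ± 0.16, limma adjusted p = 8.08e-04). Its ogt-1 mutant arrays, at 8.90, 9.21 and 9.24, lay between the other groups. The G protein alpha subunit gene gpa-18 rose 2.25-fold (1.17 ± 0.13, limma adjusted p = 0.00608), and its second probe set rose by 1.02 ± 0.13. F38B6.6 rose 2.198-fold (1.14 ± 0.13). In the ogt-1 mutant gpa-18 and F38B6.6 were called higher as well (1.16 ± 0.13 and 0.95 ± 0.13, limma adjusted p = 0.0031 and 0.00609). ZK105.1 went from 6.16, 6.20 and 6.23 to 7.30, 7.89 and 8.05 (1.55 ± 0.17), while the ogt-1 mutant gave 6.23, 6.39 and 6.58. Its mutant arrays all stood above those of both other genotypes, and the direct contrast was 1.35 ± 0.17 (limma adjusted p = 0.00495). For mbug-1 the values were 7.29, 6.53 and 6.41 against 8.86, 8.32 and 8.34 (1.76 ± 0.31, limma adjusted p = 0.0469). That call was lost without any oga-1 mutant array, ogt-1 mutant 1 or either wild type 2 or 3 (limma adjusted p = 0.0816 to 0.208). The other 5 of the 12 encode predicted chemoreceptors or a nuclear receptor and are given with their families. Of these 12 rises, 10 kept their call whichever array was left out, the exceptions being mbug-1 and the chemoreceptor gene srx-68.

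**Figure D2:**
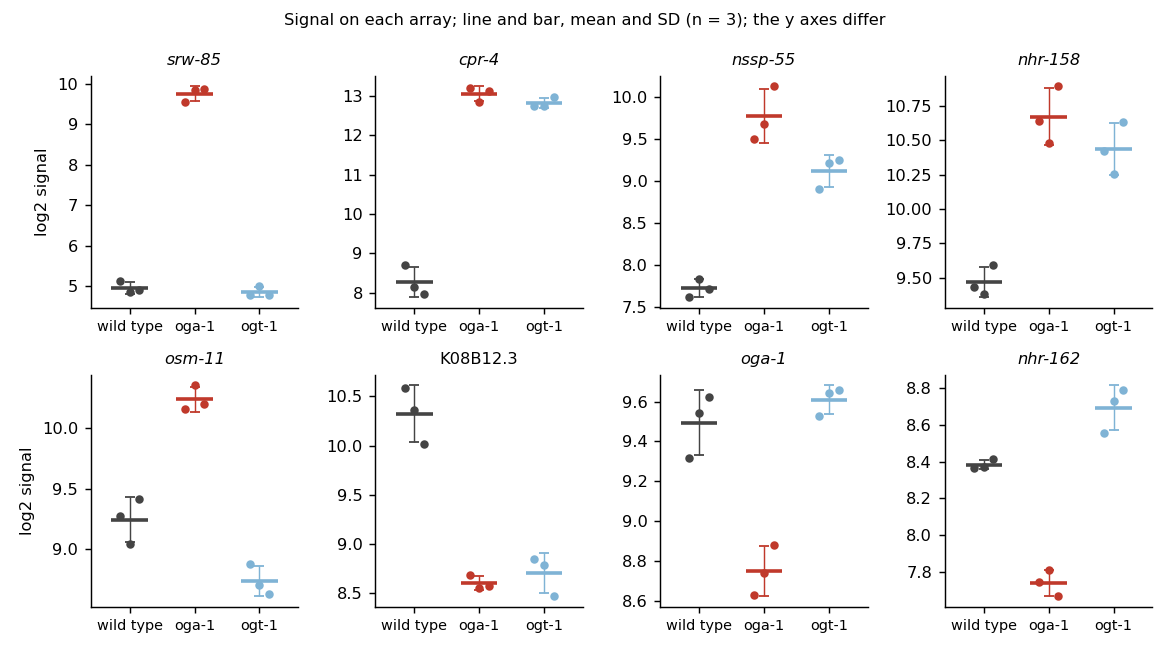
Each panel shows the log2 signal of 1 gene (y axis, own scale) on every array by genotype (x axis), with a point per array, a line at the mean and a bar for the SD of 3 arrays. For srw-85 only the oga-1 mutant is high (9.56 to 9.88), for cpr-4 both mutants are (12.75 to 13.21), and for osm-11 the oga-1 mutant lies above wild type and the ogt-1 mutant below it.

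The falls were fewer and smaller. K08B12.3 gave 10.59, 10.36 and 10.02 in wild type and 8.69, 8.56 and 8.58 in the oga-1 mutant, a 3.28-fold fall (-1.72 ± 0.15, limma adjusted p = 0.00187). The ogt-1 mutant arrays, at 8.85, 8.79 and 8.47, were in the same low range, and the mutants differed by -0.10 ± 0.15. This is the single fall among the 12 largest that was called without each array in turn. T07E3.4 fell 1.80-fold, from 9.57, 9.44 and 9.14 to 8.44, 8.68 and 8.48 (-0.85 ± 0.13, limma adjusted p = 0.0244), and the ogt-1 mutant stayed at 9.18 to 9.45. Its call depended on wild type 1 and 2 and on oga-1 mutant 1 and 3, each of which ended it when left out (limma adjusted p = 0.0578 to 0.131). H35N09.1 fell by 0.72 ± 0.10 and F40E3.5 (marked) by 0.79 ± 0.14. The ogt-1 mutant was called lower in both as well (-0.98 ± 0.10 and -0.74 ± 0.14, limma adjusted p = 0.0017 and 0.0282). The small Tim chaperone gene tin-10 (marked), whose product acts in import into mitochondria, went from 11.24, 11.26 and 11.14 to 10.70, 10.46 and 10.59 (-0.63 ± 0.09, limma adjusted p = 0.0199). F28D1.6 fell by 0.60 ± 0.10 (limma adjusted p = 0.0441). In tin-10 and F28D1.6 the ogt-1 mutant was likewise called lower than wild type (-0.67 ± 0.09 and -0.52 ± 0.10, limma adjusted p = 0.00683 and 0.033). The falls of H35N09.1 and tin-10 were lost without 4 arrays each (limma adjusted p = 0.0595 to 0.103 without oga-1 mutant 1 or 2 or wild type 2 or 3, and 0.0578 to 0.119 without oga-1 mutant 2 or 3 or wild type 1 or 2). Those of F40E3.5 and F28D1.6 were lost without 8 of the 9 arrays, all but wild type 3 and ogt-1 mutant 3 respectively (limma adjusted p up to 0.207 and 0.195).

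Predicted chemoreceptors were the largest family among the calls. These seven-transmembrane proteins, most of them with no known ligand, are made by sensory neurons and fall into subfamilies named sra to srz and str. Of 1277 measured, 23 were called higher, 1 lower and 1253 not called. That is 1.80% called higher, against 0.409% of all genes. The median difference was 0.07 (0.02 over all genes), and 75.5% of the differences lay above 0 (55.5% of all genes). In 208 the oga-1 mutant arrays were all above wild type (1726 of all genes, 10.1%) and in 47 all below (6.37% of all genes). The family is dim, with a median wild-type signal of 5.36. Genes outside this family and the collagens that lay in the dimmest of 4 equal classes of signal also leaned upward, with a median of 0.06 and 74.9% above 0. Of the 23 rises, 21 started below 7.45, and in 15 both means lay below it.

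The rises came from part of the subfamilies. They comprised 5 of 107 srx genes, 5 of 177 str, 4 of 114 srw, 4 of 232 srh and 2 of 57 srd, with 1 each of srg, sru and srab. No rise was called in srt (64 genes), srbc (67), sri (60), srz (58), sre (49) or srj (40). The same held for sra (35), srsx (31), srv (29), srb (17), srxa (14) and srm (4). With 0.409% of all genes called higher, 0 calls in groups of this size show little. Besides srw-85, the largest was str-19, with 5.72, 5.98 and 6.58 in wild type and 7.75, 7.56 and 7.90 in the oga-1 mutant (1.64 ± 0.19, limma adjusted p = 0.00701). The gene srx-68 gave 6.83, 7.38 and 7.67 against 8.58 to 9.01 (1.57 ± 0.20, limma adjusted p = 0.0100), and its call was lost when wild type 2, oga-1 mutant 1 or oga-1 mutant 2 was left out (limma adjusted p = 0.0541 to 0.0579). In both genes the ogt-1 mutant arrays were also above wild type, at 7.35 to 7.53 and 8.72 to 8.95. The rise of srw-121 was 1.42 ± 0.13 (6.76, 6.66 and 6.53 to 7.83, 8.20 and 8.18), that of srx-66 1.44 ± 0.15 and that of srx-56 1.33 ± 0.16, which is 2.51-fold. The ogt-1 mutant was called higher in srw-121 and srx-56 as well (0.67 ± 0.13 and 1.58 ± 0.16, limma adjusted p = 0.033 and 0.00126). The direct contrast was 0.75, 1.02 and -0.25 for srw-121, srx-66 and srx-56 (limma adjusted p = 0.02, 0.00809 and 0.400). The brightest of the family to rise was srab-12, from 9.06, 8.95 and 9.12 to 9.59, 9.72 and 9.86 (0.68 ± 0.09).

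One member, str-268, fell, from 8.10, 7.88 and 7.90 to 7.27, 7.33 and 7.41 (-0.63 ± 0.10, limma adjusted p = 0.0343), a call lost without any wild-type or oga-1 mutant array or ogt-1 mutant 1 (limma adjusted p = 0.0572 to 0.119). Among the 23 rises, srw-85, str-19, srx-66, srw-121, srx-56 and srd-27 were called without each array. The number called higher was 8 without wild type 2, 10 without oga-1 mutant 2, 11 without oga-1 mutant 1 or 3 and 13 without wild type 3. In a fit of the 6 arrays alone it was 12, and 7 once the control gap was a covariate. Of the 23 rises, 15 were also called in the ogt-1 mutant against the same wild-type arrays, with srg-2 among them as lower. The fall of str-268 was called in the ogt-1 mutant too (-0.49 ± 0.10, limma adjusted p = 0.0383). The direct contrast of the mutants was called for 6 of the 23 rises. In srg-2 the mutants lay on opposite sides of wild type: the oga-1 mutant rose by 0.68 ± 0.10 (6.24, 6.29 and 6.39 to 7.03, 7.04 and 6.91) and the ogt-1 mutant gave 5.70, 5.46 and 5.76.

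**Figure D3:**
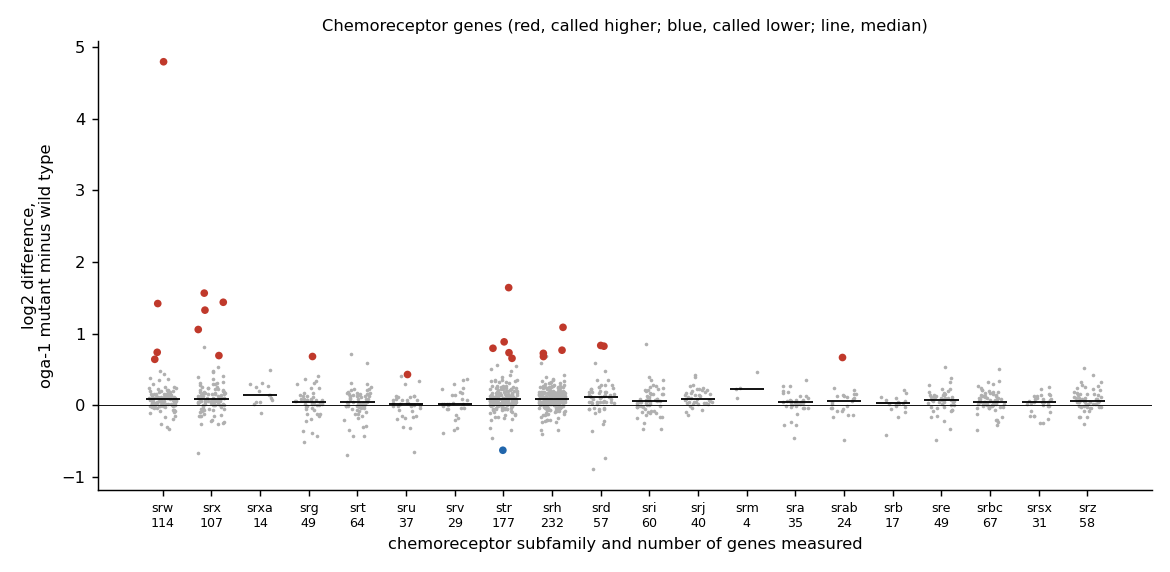
Each point is 1 of the 1277 chemoreceptor genes measured, by subfamily (x axis, with the number of genes) and log2 difference, oga-1 mutant minus wild type (y axis); red marks the 23 called higher, blue the 1 called lower, and the black line the subfamily median. srw-85 stands alone at 4.80 and the other rises lie between 0.43 and 1.64.

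The chromosome of the called genes was not even. Of the measured genes on chromosome V 39 of 4317 were called (0.903%) and on X 20 of 2351 (0.851%), against 2 of 2469 on I (0.081%), 8 of 3015 on II (0.265%), 8 of 2252 on III (0.355%) and 15 of 2666 on IV (0.563%). Chromosome V holds 884 of the measured chemoreceptor genes, and 20 of them rose (2.26%), against 3 of 393 elsewhere (0.763%). Of the other 3433 genes on V, 12 rose and 6 fell. The 12 rises are 0.35% of these genes, against 0.409% of all genes, so the higher share on V lay with its chemoreceptors. Among the 12 largest rises 9 lie on V, srw-85, cpr-4 and nssp-55 among them, and among the 12 largest falls 3 do. Chromosome V holds 4317 of the 17078 measured genes with a known position.

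Some called genes were close neighbours. With at most 3 measured genes from one called gene to the next, 6 runs held 13 of the 92 called genes, all of them on chromosome V and all of their members higher. The longest was srx-68, srx-67 and srx-66, which rose by 1.57, 1.06 and 1.44. The others were str-19 with str-43 (1.64 and 0.89), nhr-158 with nhr-159 (1.205 and 1.02), srh-189 with srx-56 (0.77 and 1.33), srh-188 with ZK105.1 (0.73 and 1.55) and col-146 with col-147 (0.80 and 0.96). Related genes that lie side by side can share sequence. Of these 13, the col-146 and col-147 probe sets are marked, and cross-hybridisation at the others was not tested. Nor was it tested how many such runs genes without any link would give. The calls in the runs were not all equally firm. Without wild type 2 those of srx-68, srx-67, str-43, nhr-159, srh-188, col-146 and col-147 were lost (limma adjusted p for nhr-159 = 0.0645 and for srh-188 = 0.0669).

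**Figure D4:**
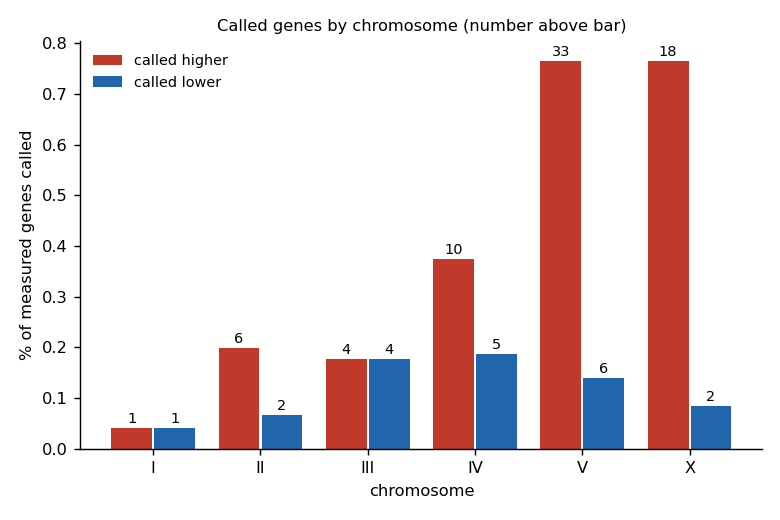
Bars give the percentage of measured genes on each chromosome that were called higher (red) or lower (blue) in the oga-1 mutant, with the number of genes above each bar. Chromosome V has 33 higher and 6 lower, X has 18 and 2, and I has 1 of each.

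Collagens of the cuticle, the larval exoskeleton that epidermal cells secrete and renew at each moult, leaned upward as a family. Of 128 measured genes named col, 7 were called higher (5.47%, against 0.409% of all genes), 0 lower and 121 not called. Their median difference was 0.29 (0.02 over all genes), and 125 of the 128 lay above 0 (97.7%, against 55.5% of all genes). In 84 of them all 3 oga-1 mutant arrays were above all 3 wild-type arrays, and in 0 below (10.1% and 6.37% of all genes). The mean signal of the family was 7.06, 7.09 and 7.12 in wild type, 7.36, 7.35 and 7.55 in the oga-1 mutant and 7.01, 7.16 and 7.11 in the ogt-1 mutant. All 3 oga-1 mutant arrays were thus above the other 6, and oga-1 mutant 3 was the highest. Collagen genes are alike in sequence, and 52 of the 128 are measured by marked probe sets, so the single differences are not independent of each other. The median was 0.39 over the marked and 0.25 over the 76 unmarked ones.

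The lean was larger among bright collagens. Over 4 classes of signal with equal numbers of genes, from dim to bright, the collagen medians were 0.18, 0.28, 0.35 and 0.71, while those of all genes were 0.06, 0.06, -0.03 and -0.04. In the brightest class 18 of 20 collagens were above wild type without overlap and 5 were called. Among all genes of that class 5.65% were above wild type without overlap and 0.421% were called higher. The gene col-145 (marked) gave 10.54, 10.80 and 10.99 in wild type and 11.65, 11.60 and 11.70 in the oga-1 mutant, a 1.83-fold rise (0.87 ± 0.13, limma adjusted p = 0.0200). The unmarked gene col-80 rose 2.18-fold, from 8.70, 9.09 and 9.52 to 10.04, 10.18 and 10.47 (1.12 ± 0.20, limma adjusted p = 0.0486), and its ogt-1 mutant arrays, at 9.24, 9.69 and 9.58, lay between. The others called were col-157 (0.69 ± 0.11), col-119 (0.70 ± 0.11) and col-146 (0.80 ± 0.14), all marked, and the unmarked col-180 (0.68 ± 0.10) and col-176 (0.57 ± 0.10). A further gene, col-147 (0.96 ± 0.16), was called at the dimmer of its 2 probe sets. Each of these calls was lost without at least 1 of the arrays: the number of col genes called was 0 without wild type 2, oga-1 mutant 2 or oga-1 mutant 3, 1 when wild type 1 or oga-1 mutant 1 was left out, and 4 when ogt-1 mutant 3 was. It was 13 after quantile normalisation, 12 without the dimmest probe sets (means under 5.67), 3 with unmarked probe sets alone and 0 in the fit of the 6 arrays or with the control gap as a covariate. The median stayed between 0.21 (without oga-1 mutant 3) and 0.34 in every setting run.

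Collagens known from mutants with altered body shape went the same way without a call. Of 19 measured, 0 passed the threshold. All 19 differences lay above 0 (55.5% of all genes) with a median of 0.31, and 13 were above wild type without overlap (10.1% of all genes). The values were 0.38 ± 0.10 for dpy-3, 0.56 ± 0.14 for dpy-4, 0.55 ± 0.15 for rol-6 and 0.53 ± 0.16 for dpy-13 (limma adjusted p = 0.168 to 0.257). For dpy-13 (marked) wild type gave 11.79, 12.31 and 12.40, all below the oga-1 mutant arrays, of which the highest read 12.88. In the direct contrast with the ogt-1 mutant 25 of the 128 col genes were called (502 of all 17118 genes, 2.93%), all 25 higher in the oga-1 mutant. Against wild type the median of the ogt-1 mutant was 0.02.

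**Figure D5:**
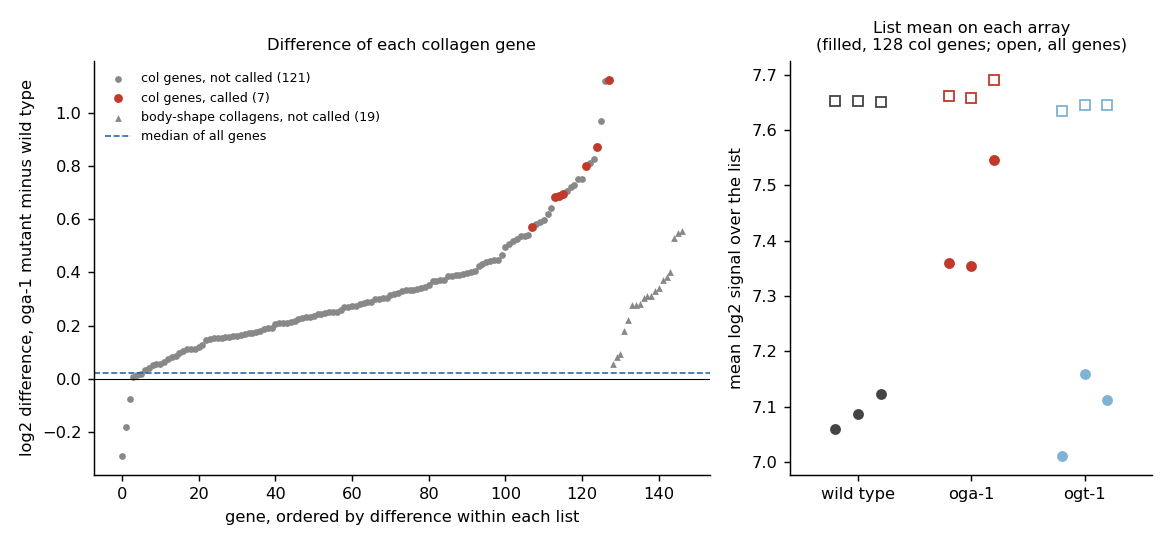
Left, the log2 difference (oga-1 mutant minus wild type, y axis) of each of 128 col genes and 19 body-shape collagens, ordered by size within each list, with called genes in red and the median of all genes (0.02) dashed. Right, the mean log2 signal on each array of the col genes (filled) and of all genes (open); the col mean is 7.35 to 7.55 in the oga-1 mutant and 7.01 to 7.16 in the other 6 arrays.

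Other genes of the epidermis and cuticle moved less. Hedgehog-related and Patched-related genes encode a family of secreted proteins and their presumed receptors. The family is much enlarged in nematodes and acts in epidermis and moulting. Of 83 measured, 2 were called higher (2.41%, against 0.409% of all genes), 0 lower and 81 not called, with a median of 0.08. They were grl-20 (at 1 of 2 probe sets, both marked), from 6.38, 6.73 and 6.71 to 7.22, 7.21 and 7.44 (0.68 ± 0.11), and grd-5, from 5.04, 5.08 and 5.12 to 5.62, 5.56 and 5.61 (0.52 ± 0.09). The limma adjusted p was 0.0403 and 0.0437, and both calls were lost without any wild-type or oga-1 mutant array (limma adjusted p up to 0.191). Larger but more scattered differences were measured for grd-3 (7.29, 8.12 and 8.49 against 8.95, 9.37 and 9.87, limma adjusted p = 0.122) and grd-10 (8.29, 9.07 and 9.40 against 9.88, 10.05 and 10.48, limma adjusted p = 0.113). In 43 cuticlins and apical matrix genes and 52 astacin and moulting proteases 0 were called, with medians of 0.08 and 0.04. The 23 epidermal markers had a median of 0.09, 0 calls, 8 genes whose oga-1 mutant arrays were all above wild type and 2 with all below (10.1% and 6.37% of all genes). This list shares members with the body-shape collagens and the hedgehog-related genes, so its counts are not separate from theirs. Of those all above wild type, dpy-7, rol-6, sqt-3, wrt-2, wrt-4, wrt-8 and grd-10 were already counted there.

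Nuclear hormone receptors, transcription factors of a family that is expanded in worms and mostly without known ligands, gave calls in both directions. Of 254 measured, 3 were called higher, 3 lower and 248 not called (0.409% and 0.111% of all genes were called higher and lower), with a median of -0.03. The gene nhr-158 gave 9.43, 9.38 and 9.59 in wild type and 10.64, 10.48 and 10.89 in the oga-1 mutant, a 2.31-fold rise (1.205 ± 0.13, limma adjusted p = 0.00512). Its neighbour nhr-159 rose by 1.02 ± 0.12, and nhr-167, dim at 5.57 to 6.03 in wild type, by 0.99 ± 0.12. In all 3 the ogt-1 mutant was above wild type as well (0.97, 0.73 and 1.33).

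The falls among these receptors set the 2 mutants apart. For nhr-162 the values were 8.37, 8.37 and 8.41 in wild type, 7.74, 7.81 and 7.67 in the oga-1 mutant and 8.56, 8.73 and 8.79 in the ogt-1 mutant, with no overlap between any pair of groups. It fell 1.56-fold (-0.65 ± 0.09, limma adjusted p = 0.0134), and the direct contrast was -0.96 ± 0.09 (limma adjusted p = 6.08e-04). For nhr-43 the 3 groups read 10.47, 10.08 and 10.10, then 9.41, 9.47 and 9.38, then 10.26, 10.49 and 10.78. The oga-1 mutant was thus the lowest throughout (-0.80 ± 0.14, limma adjusted p = 0.0469). For nhr-18 the fall was 0.65 ± 0.10 (8.89, 8.91 and 8.71 to 8.20, 8.20 and 8.14), and the ogt-1 mutant stayed at 8.76 to 9.07. The direct contrasts of nhr-43 and nhr-18 were -1.09 ± 0.14 and -0.70 ± 0.10 (limma adjusted p = 0.00547 and 0.00808). All 3 falls against wild type were lost when wild type 2 or oga-1 mutant 1 was left out (limma adjusted p up to 0.211), and none of the 3 was called in the fit with the control gap (limma adjusted p up to 0.248).

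Several called genes belong to signalling. The gene osm-11, which encodes a secreted co-ligand of Notch that acts in the response to osmotic stress, rose at both of its probe sets while the ogt-1 mutant was lower there. The first gave 9.27, 9.05 and 9.42 in wild type, 10.16, 10.35 and 10.20 in the oga-1 mutant and 8.88, 8.71 and 8.63 in the ogt-1 mutant. The rise was 0.99 ± 0.11 (limma adjusted p = 0.00629), the value of the ogt-1 mutant against wild type -0.51 ± 0.11, and the direct contrast 1.497 ± 0.11 (limma adjusted p = 2.08e-04). The second, which is marked, rose by 0.80 ± 0.12 (limma adjusted p = 0.0268) and lost its call without any wild-type array or oga-1 mutant 2 or 3. Of the 15 genes of the osmotic stress list, 1 was called, osm-11 itself, with a median of 0.13.

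Among 24 insulin-like peptide genes, ins-4 was called, at 6.13, 5.83 and 6.15 in wild type and 7.29, 6.74 and 7.13 in the oga-1 mutant (1.02 ± 0.16, limma adjusted p = 0.0316). The call was lost without any wild-type array, oga-1 mutant 1 or 3 or ogt-1 mutant 2 (limma adjusted p = 0.0548 to 0.169). The next, ins-3, gave 0.76 ± 0.14 (limma adjusted p = 0.0533), and 22 further members were not called, with a list median of 0.11. In the ogt-1 mutant both were called higher than wild type, ins-4 by 0.92 ± 0.16 and ins-3 by 1.13 ± 0.14 (limma adjusted p = 0.0219 and 0.00462). The direct contrast was 0.10 ± 0.16 for ins-4 and -0.37 ± 0.14 for ins-3 (limma adjusted p = 0.770 and 0.173). Of the 16 genes from the insulin receptor to DAF-16, the transcription factor at the end of this pathway, 0 were called, with a median of -0.11 and 3 differences above 0 (18.8%, against 55.5% of all genes). These genes are bright, with a median wild-type signal of 10.2. Over all genes of the brightest class of signal the median was -0.04, with 39.2% above 0. The value for daf-2, the receptor, was -0.33 ± 0.19 (marked).

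Neuropeptide genes had more differences below 0 than above, as bright genes did in general. Of 88 flp and nlp genes, which encode precursors of short signalling peptides, nlp-5 was called lower, 87 were not called, and the median was -0.08 with 36.4% above 0. The list is bright, with a median wild-type signal of 11.2, and over all genes of the brightest class the median was -0.04 with 39.2% above 0. In 22 of them all oga-1 mutant arrays were below wild type, against 6.37% of all genes, and in 6 above, against 10.1%. The nlp-5 signal was 11.59, 11.32 and 11.45 in wild type and 10.85, 11.02 and 10.91 in the mutant (-0.53 ± 0.09, limma adjusted p = 0.0441), and the call was lost without any 1 of the 9 arrays (limma adjusted p = 0.0653 to 0.182). Their receptors (85 genes, median 0.03) gave 1 call, npr-3, with 9.80, 9.57 and 9.67 against 10.27, 10.10 and 10.23 (0.52 ± 0.09, limma adjusted p = 0.0403). Of 135 ion channel genes 1 rose, lgc-34, which encodes a ligand-gated ion channel subunit, from 7.97, 7.79 and 8.13 to 8.92, 9.12 and 9.10. That rise was 2.12-fold (1.08 ± 0.16, limma adjusted p = 0.0199), and the ogt-1 mutant gave 7.76, 8.30 and 7.73. Among 43 guanylyl cyclases and sensory cGMP channels gcy-7, a receptor guanylyl cyclase, fell by 0.76 ± 0.12 (limma adjusted p = 0.0311). The gene hen-1, whose secreted product acts in the integration of sensory cues, rose by 1.03 ± 0.16 (8.50, 7.91 and 8.28 to 9.45, 9.01 and 9.33). Without wild type 2 the calls of npr-3, lgc-34, gcy-7 and hen-1 were all lost. The direct contrast of the mutants was 1.12 for lgc-34 (limma adjusted p = 0.0076). For npr-3, gcy-7 and hen-1 it was -0.05, -0.12 and 0.31 and did not pass the threshold (limma adjusted p = 0.799, 0.615 and 0.305). The 42 genes of cilia and intraflagellar transport had a median of -0.11 with 0 calls, and 10 were below wild type without overlap (6.37% of all genes). The 38 neuronal markers had a median of -0.04 with 0 calls.

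Muscle genes were bright, and some stood above wild type without passing the threshold. Of 36 markers of body wall muscle 0 were called, with a median of 0.08, 13 whose oga-1 mutant arrays were all above wild type and 1 with all below (10.1% and 6.37% of all genes). The myosin heavy chain gene unc-54 (marked) gave 12.98, 12.54 and 12.77 against 13.21, 13.20 and 13.41 (0.51 ± 0.11, limma adjusted p = 0.118). The troponin genes tni-3 and tnt-2, both marked, gave 0.69 ± 0.16 and 0.81 ± 0.19 (limma adjusted p = 0.121 and 0.122). Outside that list csq-1, which encodes the calcium store protein calsequestrin, was called, from 10.32, 10.56 and 10.59 to 11.17, 11.22 and 11.23 (0.71 ± 0.12, limma adjusted p = 0.0412). The ogt-1 mutant gave 10.49, 10.75 and 10.29 there, within the wild-type range at 1 array and near it at the others. The kinase gene unc-82, which acts in the order of muscle filaments, fell by 0.45 ± 0.08 at 1 of its 3 probe sets (limma adjusted p = 0.0451). The call of csq-1 was lost without 7 of the 9 arrays (all but ogt-1 mutant 2 and 3) and that of unc-82 without any 1 of them.

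Genes of immunity and detoxification gave few calls, as did genes in general (0.52% of all genes were called). Among 36 antimicrobial peptide genes fip-5 (marked) rose, from 6.69, 6.68 and 7.07 to 7.45, 7.61 and 7.73 (0.78 ± 0.12, limma adjusted p = 0.0268), 35 were not called and the median was 0.20. Leaving out wild type 1, wild type 2, oga-1 mutant 2 or oga-1 mutant 3 ended the call. In the epidermal peptide genes of this list wild type itself was spread wide: nlp-26 gave 7.07, 7.46 and 8.35 against 8.77, 9.04 and 9.42 (1.45 ± 0.30, limma adjusted p = 0.0979), and nlp-30 (marked) 7.19, 7.89 and 8.72 against 8.88, 9.51 and 9.09. Of 220 C-type lectin genes, 73 cytochrome P450 genes, 64 UDP-glucuronosyltransferase genes, 45 glutathione S-transferase genes and 24 immune regulators 0 were called, with medians of 0.06, 0.01, -0.06, 0.04 and -0.07. The infection response gene irg-5 measured 9.38, 8.09 and 8.25 against 10.75, 10.34 and 9.99 (1.79 ± 0.47, limma adjusted p = 0.183).

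Most central metabolism, growth and stress lists were without calls. With 0.52% of all genes called, 0 calls do not set lists of this size apart. No call was found for glycolysis (16 genes, median 0.06), gluconeogenesis and the glyoxylate cycle (9, 0.13), trehalose and glycogen (12, 0.05), the citric acid cycle and respiratory chain (57, 0.02), fatty acid synthesis and desaturation (51, -0.07) and beta-oxidation (35, -0.03). The same was true of cytoplasmic ribosomal proteins (65, -0.02), proteasome subunits (33, 0.03), histones (35, -0.04), the cell cycle (51, -0.01), nutrient sensing by TOR and AMPK (19, -0.08), autophagy and the lysosome (44, -0.03) and the 17 heat shock genes (0.23). In the lipase and lipid droplet list of 38, lbp-2, which encodes a fatty acid binding protein, rose 1.52-fold (11.24, 11.11 and 11.36 to 11.76, 11.81 and 11.96, 0.61 ± 0.10, limma adjusted p = 0.0381) and the call held only where ogt-1 mutant 1 was the array left out. Across these lists a missed threshold does not show that the levels were equal.

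The related genes pud-3 and pud-4 measured higher in the oga-1 mutant and lower in the ogt-1 mutant than in wild type. For pud-4 the groups read 7.56, 8.41 and 8.50 in wild type, 9.86, 9.72 and 9.63 in the oga-1 mutant and 5.86, 6.57 and 5.21 in the ogt-1 mutant, with no overlap. The difference from wild type was 1.58 ± 0.32 for pud-4 and 1.37 ± 0.41 for pud-3, and neither passed the threshold (limma adjusted p = 0.0906 and 0.240). The direct contrast of the mutants was 3.86 ± 0.32 and 3.48 ± 0.41 (limma adjusted p = 4.30e-04 and 0.00343).

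The stage and the tissues named by the labels were set against their markers. Markers of intestine, body wall muscle, pharynx and neurons had median wild-type signals of 11.5, 11.1, 10.6 and 9.73, while those of sperm, the embryo and the adult male lay at 6.53, 6.19 and 6.20 and the yolk genes at 6.44. Eggshell and germline markers were at 7.16 and 8.04. Of the 48 germline and 53 sperm markers 0 were called, with medians of -0.11 and 0.15, and of 16 eggshell, 17 embryo, 12 adult or late larval and 13 adult male markers 0 were called either. In 16 of the 53 sperm markers the oga-1 mutant arrays were all above wild type, against 10.1% of all genes and 15.6% of those in the second dimmest of the 4 classes of signal, which spans 5.67 to 7.43. Marked probe sets measure 37 of the 53, so these single differences are not independent of each other. Of the 35 intestinal markers cpr-4 alone was called, with a median of -0.04.

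To show where the oga-1 mutant differs from the ogt-1 mutant, the direct contrast was read at the called probe sets. It was called at 48 of them, 35 higher and 13 lower in the oga-1 mutant, against 652 of all 22548 probe sets (2.89%). With the replicate number as a block, a fit added after seeing the data, these counts were 54 and 1128, and all 48 remained. The called probe sets were chosen with the same oga-1 mutant arrays, so the shares are not independent of that choice, and both mutants are set against the same wild-type arrays. Against wild type, the ogt-1 mutant was called in the same direction at 47 of the called probe sets and in the opposite one at 9; over all probe sets 2.59% were called in that comparison. At 5 of the rises, in osm-11 (both probe sets), srg-2, tag-344 and C25G4.7, the ogt-1 mutant was itself called lower than wild type. In C25G4.7 the oga-1 mutant gave 7.83, 7.76 and 7.83 and the ogt-1 mutant 6.07, 6.15 and 5.87, while all 3 wild-type arrays read 7.19. The other 4 of the 9 were probe sets without a gene name, which fell by 0.67 to 1.09 in the oga-1 mutant and stood 0.53 to 0.83 above wild type in the ogt-1 mutant. For cpr-4, gpa-18, K08B12.3 and tin-10 the direct contrast was 0.23 ± 0.18, 0.00 ± 0.13, -0.10 ± 0.15 and 0.03 ± 0.09, and none of these passed the threshold.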

How the data were processed

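The deposited table of the whole series holds 1 log2 signal per probe set and array. Per the submitters' processing notes MAS5, RMA and Partek were used, with no versions or roles; no source used here tells how the authors summarised the scans or names the log base, and the values were taken as log2 from their range. The 77 control probe sets served as quality measures. Of the 22548 others, 20766 carried 1 gene symbol (17118 genes), 887 several and 895 none; 20701 matched the RefSeq gene table of WBcel235, used for names, chromosomes and gene order only. The probe set with the highest mean stood for each of the 2981 genes with several.

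A linear model from limma 3.58.1 (R 4.3.3) with moderated errors (eBayes) took in all 9 arrays, with a coefficient per genotype and no block, 6 residual degrees of freedom and 3.92 from moderation. Benjamini-Hochberg adjustment ran over 22548 probe sets, and a call is an adjusted p under 0.05. The code was tested on simulated data. Named genes are the 12 largest rises and falls among calls with 1 symbol whose higher group mean reached 7.45, all oga-1 and ogt-1 probe sets, up to 4 members of each list by p, and called neighbours; the other called genes given with values were chosen after their values were seen. Of 71 gene lists fixed for this work, those not mentioned had at most 1 call each. Lists were described by counts and medians, with no test. Over all genes 0.409% were called higher and 0.111% lower. The comparison, the lists and the named genes were chosen with earlier results of these data known. Same-numbered arrays of the 2 mutants deviated together (r of 0.107 to 0.322, each over 0.1). Their direct contrast was therefore also read with that number as a block. That pairing came from the data and not from a label. Every direct contrast printed with an SE or an adjusted p is from the fit without the block. With the block, col-80, lbp-2, math-28, mbug-1, nssp-55 and srab-12 also passed the threshold in that contrast. Wild type and the oga-1 mutant were not read as pairs. Alternatives tried were other normalisations, filters, moderation settings, blocks, a covariate and leaving out each array.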

Additional observations from a re-analysis of the deposited data

How the results depend on the processing

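The number of called probe sets, 87 higher and 25 lower in the main analysis, was 46 (41 and 5) in a fit of the 6 arrays alone, of which 42 were among the calls, and 25 (22 and 3) with the mean gap of the controls as a covariate, all 25 among them. Leaving out 1 array at a time gave 27 to 96 calls, 24 to 78 higher and 3 to 18 lower. Without both wild type 1 and oga-1 mutant 3, an alternative added after seeing the data because these arrays lay at the ends of the first component, it was 28 (21 and 7). By the rule used (every r over 0.1) the replicate numbers did not pair wild type with the oga-1 mutant: deviations of same-numbered arrays correlated at 0.120, 0.005 and 0.214, and those of other pairs at -0.206 to 0.043. Same-numbered arrays correlated at up to 0.303 between wild type and the ogt-1 mutant and at 0.107 to 0.322 between the mutants. A fit with that number as a replicate block called 163 probe sets on 9 arrays, 44 of them lower, and 85 on 6 arrays (74 higher, 11 lower). The fall of oga-1 lost its call in the 6-array fit (-0.75, limma adjusted p = 0.0659) and with the gap as a covariate (-0.75, limma adjusted p = 0.108); without 1 array it ran from -0.84 to -0.68. The cause of these shifts was not tested. Quantile normalisation, median centring, a filter on the dimmest probe sets, an intensity trend with robust moderation and array weights gave 102 to 141 calls, and no called difference changed sign. The sign turned for 2 differences that were not called: the dimmer ogt-1 probe set (-0.08) ran from -0.12 to 0.0045 without 1 array and was 0.0738 without both wild type 1 and oga-1 mutant 3, where rpt-6 was 0.0096. The planned search for promoter words was not run, since no promoter sequences were at hand. Background and detection were not assessed, and 3 arrays per group limit the precision.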

Other observations

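Several genes with large differences did not pass the threshold. ZK154.1 measured 8.36, 8.37 and 8.82 in wild type and 10.88, 10.24 and 9.72 in the oga-1 mutant (1.76 ± 0.32, limma adjusted p = 0.0525). It thus missed the threshold although the groups did not overlap, and the ogt-1 mutant differed from wild type by -0.31. F10C2.7 measured 9.87, 9.58 and 9.30 against 7.69, 8.60 and 7.79 (-1.56 ± 0.29, limma adjusted p = 0.0568). The gene pugs-11 measured 7.85, 7.26 and 7.20 against 8.91, 8.81 and 9.15 (1.52 ± 0.33, limma adjusted p = 0.104).

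The wild-type arrays differed among themselves in some genes. The gene srlf-34 read 8.62, 10.38 and 11.33 on wild type 1, 2 and 3 and 11.38, 11.92 and 12.17 on the oga-1 mutant arrays (1.71 ± 0.53, limma adjusted p = 0.264). The antimicrobial peptide gene cnc-4 read 9.09, 9.91 and 10.78 in wild type against 10.43, 11.38 and 11.17. In both, wild type 1 was the lowest of the 6 arrays, as it was for nlp-26, nlp-30, grd-3 and grd-10. These genes were picked after their values were seen. The median SD within a genotype over all probe sets was 0.0988 in wild type and 0.133 in the oga-1 mutant.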
